A study of Homo sapiens with 172 samples.

Results

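Contact with the nuclear lamina was examined for 9 genes of receptor and cytokine signalling and of blood cell identity: the receptor kinase genes PDGFRA, KIT, KDR, FLT3 and CSF1R, the cytoplasmic kinase gene JAK2, the surface marker genes CD34 and CD33, and the granule enzyme gene MPO. They were chosen by name, and their hg19 positions gave 13 bins of 100 kb, out of 26414 bins with signal, each gene with flanks of 1 Mb on either side. The data are single-cell DamID maps of KBM7, a near-haploid human myeloid leukaemia line, in which Dam methyltransferase fused to LaminB1 marks DNA that comes near the lamina. All 172 labelled samples form 1 group, haploid (1N) cells of the single clone 5-5, small in size and positive for both Fucci cell cycle markers, with methylation induced by 0.5 nM Shield1 for 15 h, and there is no second condition. The deposited table has columns for 168 of them.

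The lamina lines the inside of the nuclear envelope, and the large domains of the genome that touch it are mostly gene-poor and weakly transcribed. Which of these domains touch it differs from cell to cell. PDGFRA, KIT, FLT3 and CSF1R encode related receptors for growth factors and cytokines. KIT, the receptor for stem cell factor, and FLT3, the receptor for FLT3 ligand, act in blood stem and progenitor cells, CSF1R guides monocytes and macrophages, PDGFRA acts mainly in mesenchymal cells, and KDR is the main receptor for vascular endothelial growth factor in endothelium. JAK2 passes on signals of cytokine receptors such as the erythropoietin receptor. DamID measures contact and not expression, so whether these genes were active in the cells was not measured.

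Dam methylates the adenine in GATC, and DpnI cuts there once it is methylated, so these 4 letters are the unit of the measurement. Of 13 RefSeq start sites of 8 of the genes, 5 held a GATC in the 250 bases before the start, and 35.8% of 35116 RefSeq promoters did. GATC reads the same on both strands. The promoters of KIT and KDR, which lie in a stretch with lamina contact in some cells, and of CSF1R, which was in contact in no cell, are printed below from RefSeq (GRCh38.p14, 250 bases up to the start, in the direction of the gene), with GATC in capitals. These positions are in another build than the bins and were not set against them.
KIT, chr4:54657707-54657956, plus strand: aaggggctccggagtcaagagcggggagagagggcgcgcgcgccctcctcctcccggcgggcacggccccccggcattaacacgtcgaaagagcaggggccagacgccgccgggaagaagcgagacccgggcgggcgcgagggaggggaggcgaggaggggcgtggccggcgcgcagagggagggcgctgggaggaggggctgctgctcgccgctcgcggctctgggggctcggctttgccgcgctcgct
KDR, chr4:55125596-55125845, minus strand: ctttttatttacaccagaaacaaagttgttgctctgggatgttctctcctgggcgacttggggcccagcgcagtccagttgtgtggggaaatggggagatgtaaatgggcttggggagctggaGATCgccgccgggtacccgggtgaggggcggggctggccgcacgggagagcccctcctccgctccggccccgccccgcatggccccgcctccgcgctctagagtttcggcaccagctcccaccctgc
CSF1R, chr5:150113366-150113615, minus strand: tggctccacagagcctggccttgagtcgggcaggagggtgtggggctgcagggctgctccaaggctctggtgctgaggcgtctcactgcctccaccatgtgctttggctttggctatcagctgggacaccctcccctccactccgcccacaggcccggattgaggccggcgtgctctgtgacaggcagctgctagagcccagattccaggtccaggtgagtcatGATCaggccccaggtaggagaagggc
KIT had no GATC in this window, KDR had 1 and CSF1R had 1. The table holds 2 start sites of CSF1R, and the other, chr5:150086555-150086804, also had 1. A bin of 100 kb pools many such sites, so the contact values below say nothing about a single promoter.

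Each of the 168 columns correlated best with the column whose number was 86 higher or lower. Such pairs were taken as repeats of 1 cell and averaged, which gave n = 84 cells, named here by the lower number. Reads, worked back from the ratios, ran from 7134 to 418937 in the deeper column of a cell, with a median of 63700. A gene was called in contact in a cell when the mean observed over expected ratio of its bins was at least 1. Cells of 1 clone are not replicates, so no p-value was computed, and exact Clopper-Pearson 95% intervals cover counting error only. No molecular identifiers were used, so reads may be PCR copies of 1 molecule.

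The genes fell along a range from JAK2 and KDR, in contact in 17 of 84 cells each, to FLT3 and CSF1R, in contact in none. JAK2 and KDR each stood at 20.2% (interval 12.3 to 30.4%). KIT was in contact in 13 cells, or 15.5% (8.51 to 25.0%). Each of its 2 bins alone was in contact in 10 cells (11.9%). PDGFRA was in contact in 6 cells, or 7.14% (2.67 to 14.9%). MPO followed with 4 cells, or 4.76% (1.31 to 11.7%), CD34 with 3, or 3.57% (0.743 to 10.1%), and CD33 with 2, or 2.38% (0.290 to 8.34%). FLT3 and CSF1R were in contact in 0 of 84 cells, for which the exact interval ends at 4.30% and the limit that a count of 0 allows (3 cells) is 3.57%. The intervals of neighbours in this order overlap. Those of KDR and JAK2 lie wholly above those of CD34, CD33, FLT3, CSF1R and MPO, and that of KIT lies above those of CD33, FLT3 and CSF1R.

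Against the genome, 2 of the 9 genes reached 20% of cells, and 47.7% of covered bins did. In under 5% of cells were 5 of the 9 genes, and 36.7% of covered bins. In no cell were 2 of the 9 genes, and 6.19% of covered bins. These shares are of single bins, but KIT, FLT3 and JAK2 are means of 2 or 3 bins. Each of the 2 bins of FLT3 was in contact in 1 cell, so by single bins only CSF1R was in none. The median over the 9 genes was 4.76% and over covered bins 16.7%, and the means were 8.20% and 27.8%. The genes are few and their chromosomes differ in overall contact, so these figures describe the 9 genes and are no test of the set.

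**Figure D1:**
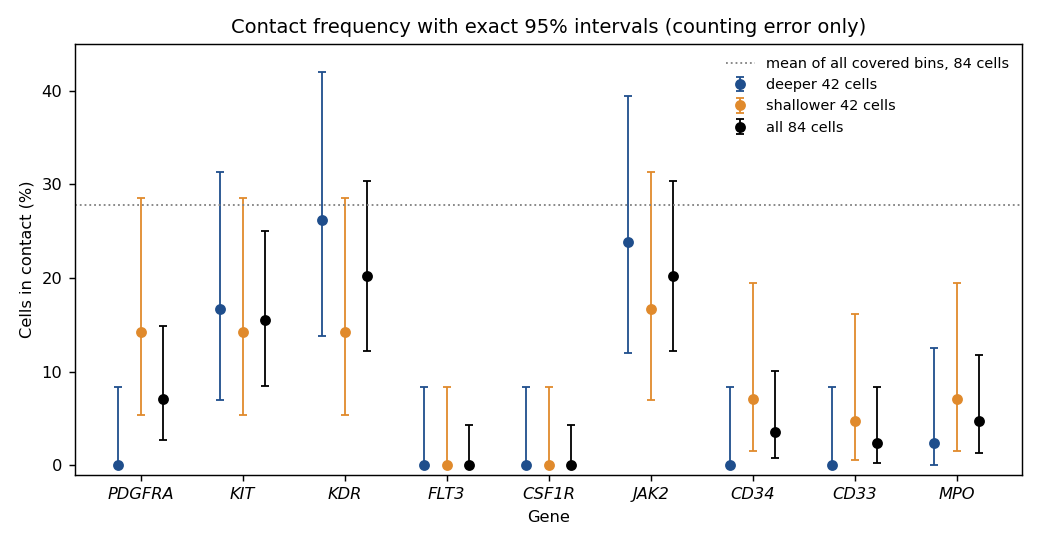
Percent of cells in contact for each gene, in the deeper 42 cells, the shallower 42 cells and all 84 cells, with exact 95% intervals as bars and the mean of all covered bins as a dotted line. KDR and JAK2 are the highest over all cells at 20.2%, FLT3 and CSF1R are at 0, and PDGFRA, CD34 and CD33 are at 0 in the deeper cells.

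These values differed between deeper and shallower cells. Cells were split at the median of their reads into 42 deeper cells (at least 64761 reads) and 42 shallower cells (at most 62639). All contacts of PDGFRA (6), CD34 (3) and CD33 (2) were in shallower cells, and in the deeper cells these genes were in contact in 0 of 42, for which the exact interval ends at 8.41% and the limit that a count of 0 allows (3 cells) is 7.14%. MPO was in contact in 1 deeper cell, cell 48, and in 3 shallower cells. KDR went the other way in number, with 11 of the deeper cells (26.2%, interval 13.9 to 42.0%) and 6 of the shallower ones (14.3%, 5.43 to 28.5%), intervals that overlap. JAK2 had 10 and 7 cells, and KIT 7 and 6. The mean frequency of all covered bins was 31.2% in the deeper and 24.3% in the shallower cells. Some flank bins of CD33 also had contacts only in shallower cells, such as 52600001 to 52700000, with 0 deeper and 5 shallower. Others did not, such as 51000001 to 51100000, with 1 deeper and 0 shallower. The share of all covered bins with contacts only in shallower cells is not given. Whether this is particular to PDGFRA, CD34 and CD33 was therefore not tested.

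The reads behind the calls show the same split. A ratio of 1 stood for a median of 1.52 reads in the PDGFRA bin of a shallower cell and 6.27 reads in a deeper one, so that in shallow cells 1 or 2 reads make a contact. The 6 contacts of PDGFRA rested on 1 to 4 reads each, the 3 of CD34 on 2 to 4, and the 2 of CD33 on 1 and 2. In the deeper column, at least 10 reads lay behind 10 of the 17 contacts of KDR, which like these genes has 1 bin. The same held for 12 of the 17 of JAK2 and 7 of the 13 of KIT, but their reads are summed over 3 and 2 bins. In the median cell a ratio of 1 stood for 6.94 reads at JAK2 and 6.03 at KIT. It stood for 2.78 reads at KDR, 2.67 at PDGFRA, 3.47 at CD34 and 2.68 at CD33. When the lower-numbered columns of the 61 cells with enough reads were thinned to 30000 reads, 6 of the 9 genes gained contacts. JAK2 had 17, against 13 before thinning, PDGFRA 5, against 3, FLT3 and CSF1R 2 each, against 0, and KIT and CD34 gained 1 each. KDR had 16, against 17, and CD33 and MPO kept their counts of 1 and 3. The other 23 cells were left out of this comparison. How many of all covered bins gained contacts is not given, so these counts describe the 9 genes only.

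**Figure D2:**
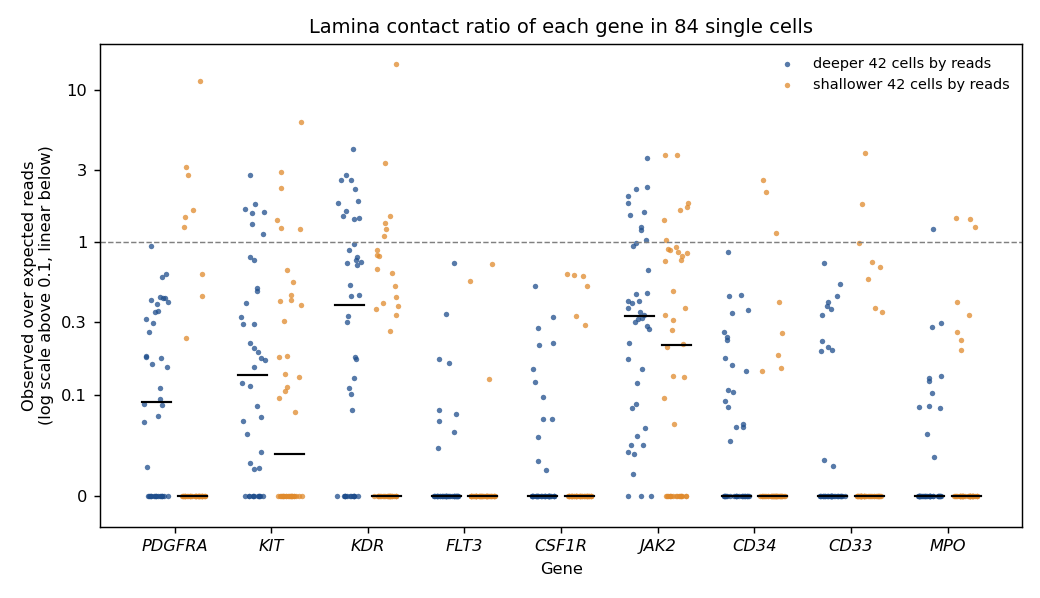
Observed over expected ratio of each gene in every cell, on an axis that is logarithmic above 0.1 and linear below, with deeper cells in blue, shallower cells in orange, medians as black bars and the cutoff of 1 dashed. For PDGFRA, CD34 and CD33 the points above 1 are all orange, and for KIT, KDR and JAK2 both colours lie above 1.

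The cluster on chromosome 4 held 3 receptor genes within 1 Mb: PDGFRA at 55100001 to 55200000, KIT at 55500001 to 55700000 and KDR at 55900001 to 56000000. Chromosome 4 averaged 37.8% over its covered bins, and the 3 genes lay below that mean. By frequency, PDGFRA was above 22.2% of the bins of the chromosome, KIT above 30.8% and KDR above 34.6%, where KIT is a mean of 2 bins set against single bins.

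The ratio of KDR ran from 0 through a median of 0.174 to 14.7 over the 84 cells, and 37 cells were at 0. The highest value was in cell 53, where it rested on 6 of only 11390 reads. In the deeper cells the highest ratio was 4.07, with a mean of 0.768 ± 0.973 (SD over 42 cells). KIT ran from 0 through 0.101 to 6.14, with 32 cells at 0, and its highest value came from cell 29, with 5 reads. In the deeper cells KIT averaged 0.415 ± 0.640 and reached 2.78. PDGFRA ran from 0 through 0 to 11.4, again highest in cell 53, with 4 reads and 49 cells at 0.

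PDGFRA in the deeper cells showed a low level rather than none. It had a read in 26 of the 42 cells, since 16 were at 0, and its ratio had a median of 0.093, a highest value of 0.949 and a mean of 0.182 ± 0.220. FLT3 in the same cells had 33 at 0 and a mean of 0.0417 ± 0.126. Reads over all deeper cells made up 0.193 of those a ratio of 1 would give for PDGFRA, 0.529 for KIT and 0.805 for KDR.

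In the deeper cells, contact frequency stepped up just beyond PDGFRA. In these cells the bins from 55000001 to 55200000, PDGFRA included, were in contact in 0 of 42 cells, and the next bin, 55200001 to 55300000, in 8. From there to 56200000 every bin was in contact in 4 to 15 cells, with KIT at 4 and 7 for its first and second bin and KDR at 11. The highest bin of the cluster followed KDR, 56000001 to 56100000, with 15 deeper cells and 24 of all 84 (28.6%). The bin 56100001 to 56200000 was in contact in 9 deeper cells and the bin after it in 0. Some contact returned 0.3 Mb further on, with 5 deeper and 6 shallower cells at 56500001 to 56600000 and 4 of each in the next bin, next to 4 deeper and 6 shallower cells in the first KIT bin. The shallower cells showed no step at PDGFRA, with 6 cells in its bin and 8, 5 and 7 in the next 3. Over all 84 cells the same borders read 6 cells in the PDGFRA bin and 16 in the next, and 11 cells at 56100001 to 56200000 and 1 in the bin after it. The stretch and its borders were picked after the values were seen. KIT and KDR lay inside it and PDGFRA in the last bin before it, at a resolution of 100 kb.

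**Figure D3:**
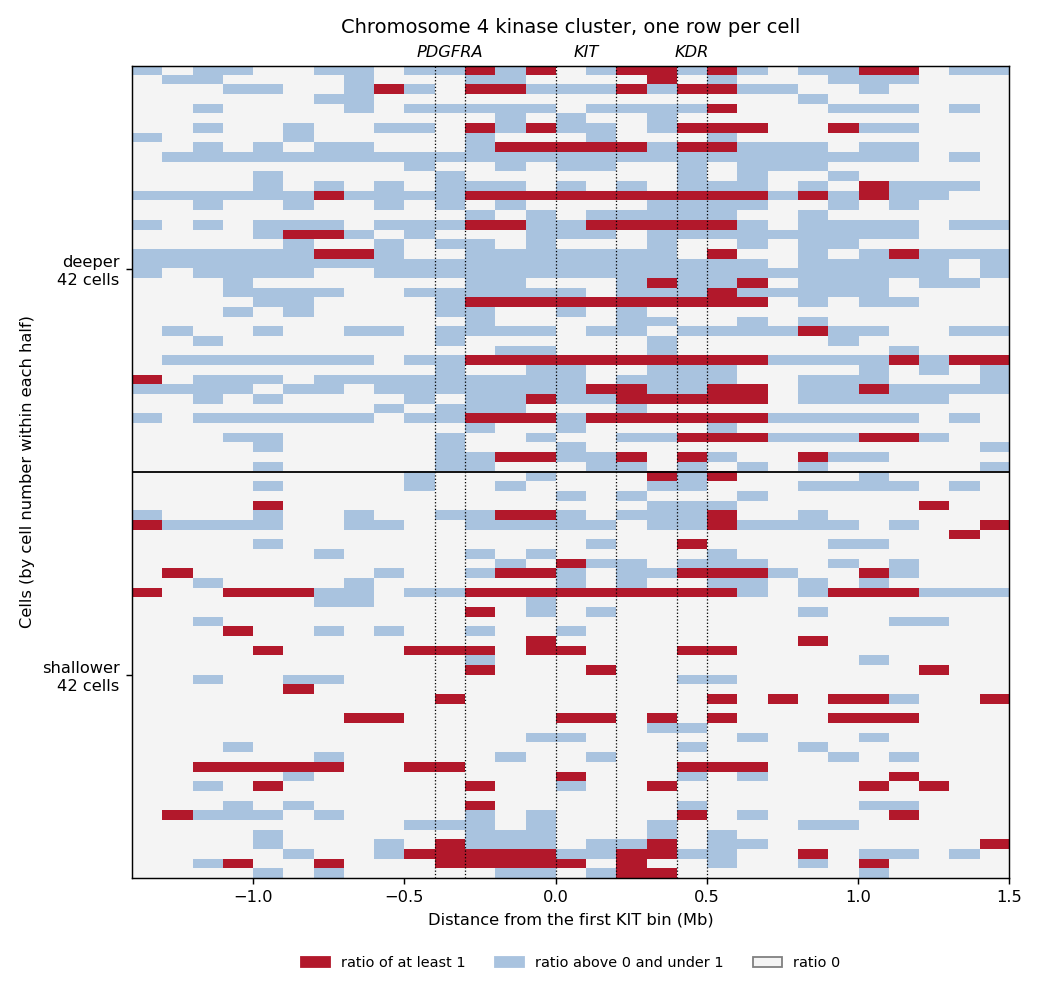
Each row is a cell and each column a 100 kb bin, by distance from the first KIT bin in Mb, for the deeper 42 cells above the line and the shallower 42 below, with ratios of at least 1 in red, ratios above 0 and under 1 in pale blue and 0 in grey. Dotted lines enclose the bins of PDGFRA, KIT and KDR. In the deeper cells the PDGFRA bin holds no red, the next bin holds red in 8 cells, and the bin at 56000001, just right of KDR, in 15.

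Cells differed in how much of the stretch touched the lamina. Of the 9 bins from PDGFRA to KDR, no bin was in contact in 48 of 84 cells, 1 to 3 bins in 22 cells and at least 4 in 14 cells. No cell had all 9 bins in contact, and 4 cells (13, 42, 61 and 69) had 8. Among the deeper cells the numbers were 27, 5 and 10. Consecutive bins in contact that held a KIT bin had a median length of 0.5 Mb and a highest length of 1 Mb, over 14 cells. Those that held KDR had a median of 0.3 Mb and the same highest length, over 17 cells, and those that held PDGFRA a median of 0.25 Mb over 6 cells.

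KIT and KDR were often in contact in the same cells. Both were in contact in 8 cells, KIT alone in 5 and KDR alone in 9, and independent contacts at the same frequencies would give 2.63 cells with both. In the deeper cells both were in contact in 6, KIT alone in 1 and KDR alone in 5, with 1.83 by independence. The correlation of log2 ratios (pseudocount 0.1) over cells, after subtraction of each cell's overall contact share, was 0.271 over 84 cells, 0.551 in the 42 deeper ones and 0.0560 in the 42 shallower ones. For comparison, single bins of chromosome 4 at a separation of 0.4 Mb, both in contact in at least 5% of cells, were paired. Their median correlation was 0.369 over 1341 pairs (quartiles 0.271 and 0.462). KIT is a mean of 2 bins, 0.4 and 0.3 Mb before KDR, so these pairs match it only roughly. PDGFRA and KIT shared 2 cells, as did PDGFRA and KDR. All these sharing cells were shallower ones. Their correlations were 0.184 and 0.392, but in the 61 cells thinned to 30000 reads they were 0.383 and 0.181, in the opposite order. Pairs of bins 0.8 Mb apart had a median of 0.294. The 3 genes lie on the same chromosome molecule of a haploid cell and share its reads, and these are descriptions over cells.

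FLT3, on chromosome 13 at 28500001 to 28700000, was nearly free of reads. Its ratio was 0 in 72 of 84 cells and reached 0.730 in cell 48, in which 27.3% of the reads fell in bins contacted in under 5% of cells, against a median of 2.71% over cells. Each of its 2 bins was in contact in 1 cell, in single-bin runs, but their mean stayed under 1 in every cell. The flanks of FLT3 averaged 3.15%, with the highest bin at 29600001 to 29700000 (11 cells, 13.1%). The bins of its chromosome averaged 33.1%.

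CSF1R, on chromosome 5 at 149400001 to 149500000, was likewise in contact in no cell. Its ratio was 0 in 65 cells and reached 0.623 in cell 3. Its flanks averaged 3.93%, and 19 of the 20 flank bins were in contact in more cells than the gene, led by 148500001 to 148600000 with 10 cells (11.9%). Over the deeper cells, reads at CSF1R made up 0.0603 of those a ratio of 1 would give, and at FLT3 0.0499. The cells in which whole chromosomes nearly lacked reads touch these genes only through cell 79, with 3.23% of the expected reads on chromosome 5, 2.77% on chromosome 13 and 4.65% on 9:22 in its lower-numbered column. The higher-numbered column of cell 79, averaged with it, held 24.8, 24.1 and 30.1% of the expected reads on these chromosomes.

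JAK2, on the joined chromosome 9:22 at 4900001 to 5200000, was the most contacted of the genes together with KDR. Its ratio ran from 0 through a median of 0.304 to 3.76, with 19 cells at 0, and in the deeper cells it averaged 0.642 ± 0.798 and was 0 in 3. Its 3 bins were in contact in 14, 17 and 17 cells. At least 1 of them was in contact in 29 cells (34.5%), so the frequency of the gene depends on how its bins are combined. In 12 of these 29 cells the run that held JAK2 was a single bin, and in cell 69 it spanned 4.6 Mb.

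JAK2 sat in a window where high and low contact alternated. The bin 3900001 to 4000000 at the start of its window was in contact in 58 cells (69.0%), and contact fell to 1 cell (1.19%) at 4700001 to 4800000. The bin next to the gene, 4800001 to 4900000, was in contact in 4 cells (4.76%). Beyond the gene contact was higher again, with 34 cells (40.5%) at 5200001 to 5300000 and 24 (28.6%) in the next bin, and then 5 (5.95%). The last bin of the window, 6100001 to 6200000, was in contact in 38 cells (45.2%). In the deeper cells the bins of JAK2 were in contact in 6, 8 and 10 cells and the bin after it in 21 of 42. JAK2 itself differed from the mean of its single flank bins, 26.0%, by -5.71 points. Against flank runs of 3 bins, as long as the gene, it differed by -6.32 points, and by -6.70 points when any bin of the gene and of each run counted as contact.

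CD34, the glycoprotein of blood stem and progenitor cells, had the widest gap to its surroundings. Its bin, 208000001 to 208100000 on chromosome 1, was in contact in 3.57% of cells, and its flanks averaged 26.5%, a difference of -23.0 points. The flank after the gene averaged 38.1% and the flank before it 15.0%. Contact stayed at 4 to 7 cells up to 208400000, was at 28 cells in the bin from 208400001, and reached 59 cells (70.2%) at 208900001 to 209000000. Before the gene, 207300001 to 207400000 reached 27 cells (32.1%). CD34 was below its flanks under all 18 alternatives run, with differences from -33.7 to -11.5 points. The ratio of CD34 was 0 in 57 cells and reached 2.57 in cell 55, with 2 reads.

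**Figure D4:**
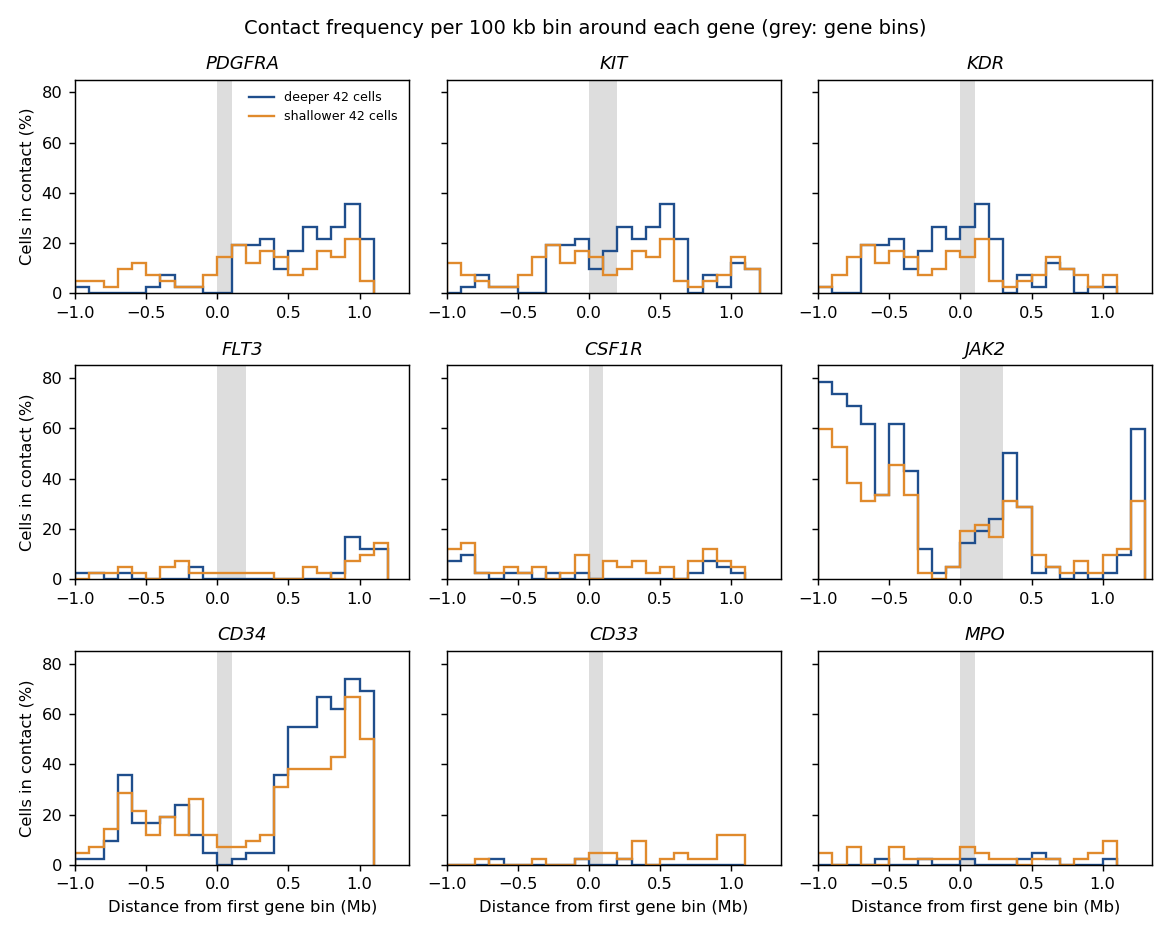
Percent of cells in contact per 100 kb bin from 1 Mb before to 1 Mb after each gene, by distance from its first bin in Mb, in the deeper 42 cells (blue) and the shallower 42 cells (orange), with the bins of the gene in grey. CD34 and JAK2 lie near bins at 70.2 and 69.0% of all cells, the chromosome 4 genes at or in a stretch of intermediate contact, and FLT3, CSF1R, CD33 and MPO in windows of low contact.

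CD33 and MPO lay in windows with hardly any contact. CD33, a sialic acid-binding receptor of myeloid cells at 51700001 to 51800000 on chromosome 19, had flanks at 1.67%, and no bin of its window was above 5.95%. Its 2 contacts were in cells 53 and 57, at ratios of 3.86 and 1.77, both among the shallower cells. MPO, the peroxidase of neutrophil granules at 56300001 to 56400000 on chromosome 17, had flanks at 1.90% and a window that reached 5.95%. Its 4 contacts had ratios from 1.23 to 1.44, and the one on most reads, 16, was in cell 48. That was its only contact in a deeper cell. In cell 48, 27.3% of the reads fell in bins contacted in under 5% of cells, against a median of 2.71% over cells. Chromosome 19 averaged 4.89% and chromosome 17 8.44%, and CD33 was above 46.1% of its bins and MPO above 65.7%. On chromosome 17, cell 63 had 0.851% of its expected reads in its lower-numbered column and 6.93% in the higher-numbered one.

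Relative to their own flanks, 5 of the 9 genes were lower, and 51.8% of covered bins were lower than theirs, so the share is near that of any bin. PDGFRA differed from its flanks by -3.51 points over all cells, by -11.7 points in the deeper cells and by 4.64 points in the shallower ones. FLT3 differed by -3.15 and CSF1R by -3.93 points. KIT was 4.52 points above, and 0.529 when any of its bins was set against any bin of flank runs of the same length. Each KIT bin alone, at 11.9%, lay near the mean of its single flank bins, 11.0%. KDR was 9.52 points above, and in the window of KDR 1 of 20 flank bins was higher than the gene. MPO was 2.86 and CD33 0.714 points above. The interval of KDR, 12.3 to 30.4%, lay above the mean of its flanks, 10.7%. That of CD34, 0.743 to 10.1%, lay below the mean of its flanks, 26.5%. For each of the other genes the interval held the mean of the flanks. These intervals cover counting error of the gene only. The share of all covered bins whose interval leaves out the mean of their flanks is not given. Whether the gaps of KDR and CD34 are unusual for a bin was therefore not tested.

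Genes on different chromosomes correlated weakly over cells. Over the 33 pairs on different chromosomes, correlations over 84 cells had a median of 0.0656 and ran from -0.156 for KDR and CD34 to 0.377 for FLT3 and MPO. FLT3 and MPO were near 0 in most cells, so their value rests on few reads and is no finding. JAK2 shared 4 cells with KDR and 4 with KIT, and independence would give 3.44 and 2.63. No gene was in contact in 43 cells, 1 in 25, 2 in 12, 3 in 3 and 4 in 1, which was cell 13 with KIT, KDR, JAK2 and MPO. Log ratios correlated with the overall contact share of the cell at 0.303 for KDR, 0.298 for JAK2 and 0.267 for KIT, and at 0.0313 for PDGFRA.

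Outside the window of 1 Mb on either side of KDR, the bins most like it over cells were 54500001 to 54600000 and 53200001 to 53300000 on chromosome 4 (correlations 0.545 and 0.475) and 19600001 to 19700000 on X (0.445). The first of these lies before PDGFRA, within 1 Mb of that gene and of KIT. For JAK2, outside its own window, they were 3600001 to 3700000, 127600001 to 127700000 and 26900001 to 27000000 on 9:22 (0.444, 0.430 and 0.416). Of these 6 bins, 3600001 to 3700000 on 9:22 was the most contacted, at 54.8%, and shared 13 cells with JAK2. They are the best matches out of every bin with signal, several are contacted in few cells, and no gene name is given to them.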

How the data were processed

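Single KBM7 cells were profiled by DamID. The tools named in the submitters' processing notes are cutadapt and Bowtie2 2.1.0, and the build is hg19. The authors deposited 1 ratio, observed reads over expected ones, per column and 100 kb bin, in 168 columns and 30376 bins. The treatment of duplicates and the making of the expectation are not given in the sources used. Of the bins, 3792 had no value and 170 were 0 in every column, which left 26414.

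Columns n and n + 86 were averaged. Whole reads were recovered from the common step of each bin and column, with 100% of the nonzero values whole to within 0.02. The code for this recovery, the intervals and the correlations was run on simulated data. The simulated reads came from the fitted factors, the counts were binomial and the correlated values were normally distributed, unlike the ratios here. These runs check the code and say nothing on the reported values. Gene bins were those overlapping hg19 positions given in rounded Mb. The 9 genes, the lists and the alternatives were chosen with earlier results of these data known. The naming rule took all 9 genes, the highest and lowest bin of each window, and the 3 most alike bins of genes in contact in at least 20% of cells. No hg19 annotation was used, so other genes of these pathways were not placed. Sequences are from RefSeq promoters. Tools were Python 3.11.15, numpy 2.4.6, pandas 2.3.3, scipy 1.17.1 and matplotlib 3.10.9. No columns of other samples were present.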

Additional observations from a re-analysis of the deposited data

How the results depend on the processing

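Over the 19 alternatives that give a frequency for each gene, KIT, KDR and JAK2 were each in contact in more cells than FLT3, CSF1R, CD34, CD33 and MPO in every one. These groups follow the order seen in the same data, and PDGFRA is in neither. PDGFRA, KIT and KDR were each at 14.3% in the shallower cells, and PDGFRA was at 0% in the deeper ones. Of 368 values under the 16 alternatives listed first, 329 stayed within the interval of the reported value or within 1.5-fold, 37 moved and 2 moved past 0 by more than that. Some of the 329 could not move. Counting any bin of the gene changes nothing for genes of 1 bin, and the correlations under it were those of the main setting. Changes of sign of any size numbered 10, and 8 of them were CD33 or MPO minus their flanks. Of 61 under 5 alternatives added after seeing the data (cells 1 to 29, cells 30 to 86, cells with at least 1 read expected, and 2 with flanks in runs as long as the gene), 59 stayed, and CD33 minus its flanks changed sign in 1. The mean frequency of the 9 genes, 8.20%, was 14.7, 5.03 and 3.04% at cutoffs of 0.5, 1.5 and 2, by construction. The correlation of KIT and KDR, 0.271, was 0.481 in even-numbered and 0.101 in odd-numbered cells, 0.551 in deeper cells, 0.0560 in shallower cells and 0.530 with 1 more bin on either side of each gene, and the cause was not tested. With that added bin PDGFRA and KIT had 0.427, against 0.184. PDGFRA minus its flanks reversed to 4.64 points in shallower cells, and JAK2 minus its flanks to 8.57 points when any bin of the gene was set against single flank bins, which can only raise the gene. Against flank runs of the same length it was -6.70 points. CD33 and MPO minus their flanks were above 0 in 13 and 14 of 18 alternatives. The number of genes below their flanks ran from 4 to 7. Calls from the paired columns matched in 76 to 84 of 84 cells per gene, but these columns are not independent. Depth limits the low frequencies: a ratio of 1 at CD33 meant under 1 read in 13 cells, and CD33 was at 0% in the 71 other cells. No paired analysis was possible because all samples form 1 group.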
